A study of Homo sapiens with 12 samples.

Results

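The genes described here encode the machinery that makes and processes RNA polymerase II transcripts: polymerase subunits, initiation factors, Mediator, Integrator, and the factors that pause or release the polymerase. They were the genes of the array annotation whose symbols belong to the families POLR2, MED, INTS, TAF, GTF2, SUPT, NELF, CPSF and CSTF or to a fixed set of kinases, cyclins and elongation factors, with antisense symbols left out. This gave 75 genes of the 14884 named genes measured, of which 71 are protein-coding. The other 4 are the divergent transcript CSTF3-DT and the pseudogenes GTF2IRD1P1, INTS4P2 and MED15P9. Each gene is represented by 1 transcript cluster, the set of probes assigned to 1 locus, and where a gene had several, by the brightest. TAF genes and most polymerase subunits had no named cluster and were not analysed here. Among others, PAF1, CTR9, LEO1, LARP7, ELL2, AFF1 and AFF4 also lacked one, as did most general initiation factors. Of the protein-coding CPSF and CSTF genes, only CPSF4L had one.

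The samples were SK-N-BE(2) cells, an established neuroblastoma line with amplified MYCN, so all groups are 1 line in culture. Each of 4 groups had 3 arrays, and all cells were exposed for 6 h. Controls received vehicle. The treated groups received 1 µM JQ1, an inhibitor of the BET bromodomain proteins that read acetylated histones, or 10 nM panobinostat, an inhibitor of histone deacetylases, or both compounds at these doses. All arrays were Affymetrix Human Gene 2.0 ST, values are log2 signals, and changes are log2 differences ± SE from limma. A call means an adjusted p under 0.05, with Benjamini-Hochberg adjustment over the 14884 genes. The 3 comparisons with vehicle share the same vehicle arrays, so their values are given side by side and are not independent of each other.

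Polymerase II starts transcription with general factors such as TFIIB and TFIIH, and Mediator carries signals from enhancer-bound activators, including BET proteins, to this complex. Soon after the start the polymerase is held by NELF and DSIF until the kinase P-TEFb and the super elongation complex release it, while Integrator can cleave the nascent RNA and end transcription. MYC proteins are known to promote this release, and BET inhibitors to act on it.

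Correlations between arrays of a group over all genes were 0.991 to 0.995, against 0.962 to 0.989 between groups. The SD over genes was widest on vehicle replicate 1 (2.0) and narrowest on panobinostat replicate 1 (1.85) and combination replicate 1 (1.87), against 1.91 to 1.96 on the other arrays. The labelled cell type was checked against 13 adrenergic neuroblast markers, of which 11 were measured. They averaged between 8.03 (TBX2) and 11.3 (GATA3) over the 12 arrays, all above the median gene at 7.24. Markers of other cells lay on both sides of that median. CD14 of monocytes (6.27) and PECAM1 and VWF of endothelium (5.38 and 6.12) were below it, as were EPCAM and KRT8 of epithelium (6.93 and 7.1), S100B of Schwann cells (5.95) and DCN of fibroblasts (6.02). KRT18 of epithelium (8.42), SOX10 of Schwann cells (7.44) and LUM of fibroblasts (11.6) were above it. Of 7 mesenchymal or neural crest markers SNAI2 (11.5), VIM (10.1), FN1 (9.05) and TWIST1 (9.02) were above it, and CD44 (7.03), PRRX1 (6.77) and YAP1 (6.04) below. In the combination GATA3 was at 10.5 against 11.8 with vehicle and HAND2 at 10.6 against 11.8, and the part of such marker shifts in the changes below was not tested.

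As a guide to the loci, the promoters of the genes with the largest changes in the combination are shown, the 2 largest falls and the 2 largest rises among genes with a RefSeq promoter entry. INTS3 and GTF2IRD1 fell, and EAF2 and MED26 rose. Each sequence is the 250 bases before the annotated start on GRCh38.p14, read 5′ to 3′ in the direction of the gene. Capitals mark matches, on either strand, to 6 motifs. These are the TATA box, spelled TATAAA, the E-box, spelled CACGTG, the GC box, spelled GGGCGG, the CCAAT box, the cAMP response element, spelled TGACGTCA, and the ETS motif, spelled CCGGAAG. INTS3 lies at chr1:153727800-153728049 on the plus strand and GTF2IRD1 at chr7:74453656-74453905 on the plus strand. EAF2 lies at chr3:121834959-121835208 on the plus strand and MED26 at chr19:16628205-16628454 on the minus strand.
INTS3: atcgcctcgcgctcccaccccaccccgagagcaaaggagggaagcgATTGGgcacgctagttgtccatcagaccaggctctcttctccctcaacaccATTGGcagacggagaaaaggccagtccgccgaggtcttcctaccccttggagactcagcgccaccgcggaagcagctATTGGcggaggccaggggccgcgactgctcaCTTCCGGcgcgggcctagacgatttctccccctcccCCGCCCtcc
GTF2IRD1: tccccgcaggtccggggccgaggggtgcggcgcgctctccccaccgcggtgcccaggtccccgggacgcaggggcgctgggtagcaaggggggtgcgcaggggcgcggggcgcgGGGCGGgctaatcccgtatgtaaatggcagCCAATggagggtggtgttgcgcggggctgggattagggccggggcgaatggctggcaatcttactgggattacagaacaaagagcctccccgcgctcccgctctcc
EAF2: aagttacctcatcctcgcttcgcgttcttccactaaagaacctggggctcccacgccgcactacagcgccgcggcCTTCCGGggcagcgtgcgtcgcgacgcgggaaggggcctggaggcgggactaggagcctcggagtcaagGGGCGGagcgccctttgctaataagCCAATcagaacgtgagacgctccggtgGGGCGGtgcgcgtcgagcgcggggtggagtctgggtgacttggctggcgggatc
MED26: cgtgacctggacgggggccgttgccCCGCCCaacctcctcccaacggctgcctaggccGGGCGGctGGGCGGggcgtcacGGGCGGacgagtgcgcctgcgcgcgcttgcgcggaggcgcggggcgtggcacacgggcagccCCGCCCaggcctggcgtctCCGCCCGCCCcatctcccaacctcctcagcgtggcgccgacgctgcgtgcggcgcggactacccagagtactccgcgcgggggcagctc
The INTS3 window holds 3 CCAAT matches, 1 ETS match and 1 GC box, the last starting 9 bases before the start. The window of MED26 holds 7 GC-box matches, of which the closest pair overlaps, and no match to the other motifs. EAF2 has 2 GC boxes with a CCAAT box between them and an ETS match upstream, and GTF2IRD1 has 1 GC box and 1 CCAAT box. None of these 4 windows holds a match to the TATA box, the E-box or the cAMP response element.

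Windows of 300 bases, from 250 before to 50 after the start, were available for 57 of the genes, 56 of them protein-coding. The whole table held 27305 promoters. These were not limited to protein-coding or measured genes, and promoters of genes of like signal were not compared. The differences below are therefore not shown to be particular to the machinery. The GC box was found in 67.9% of the protein-coding genes' windows against 44.6% of all windows, and the ETS motif in 35.7% against 10.7%. The TATA box was in 3 of the 56 windows (5.36%) against 3264 of all 27305. The E-box was in 12.5% against 7.43%, the cAMP response element in 3.57% against 1.98%, and the CCAAT box in 35.7% of both. The median GC content was 62.8% against 58.3%. Among genes that rose in the combination 13 of 15 windows held a GC box, among those that fell 9 of 18, and among those not called 16 of 23. These matches describe letters in the windows and say nothing of factor binding.

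**Figure D1:**
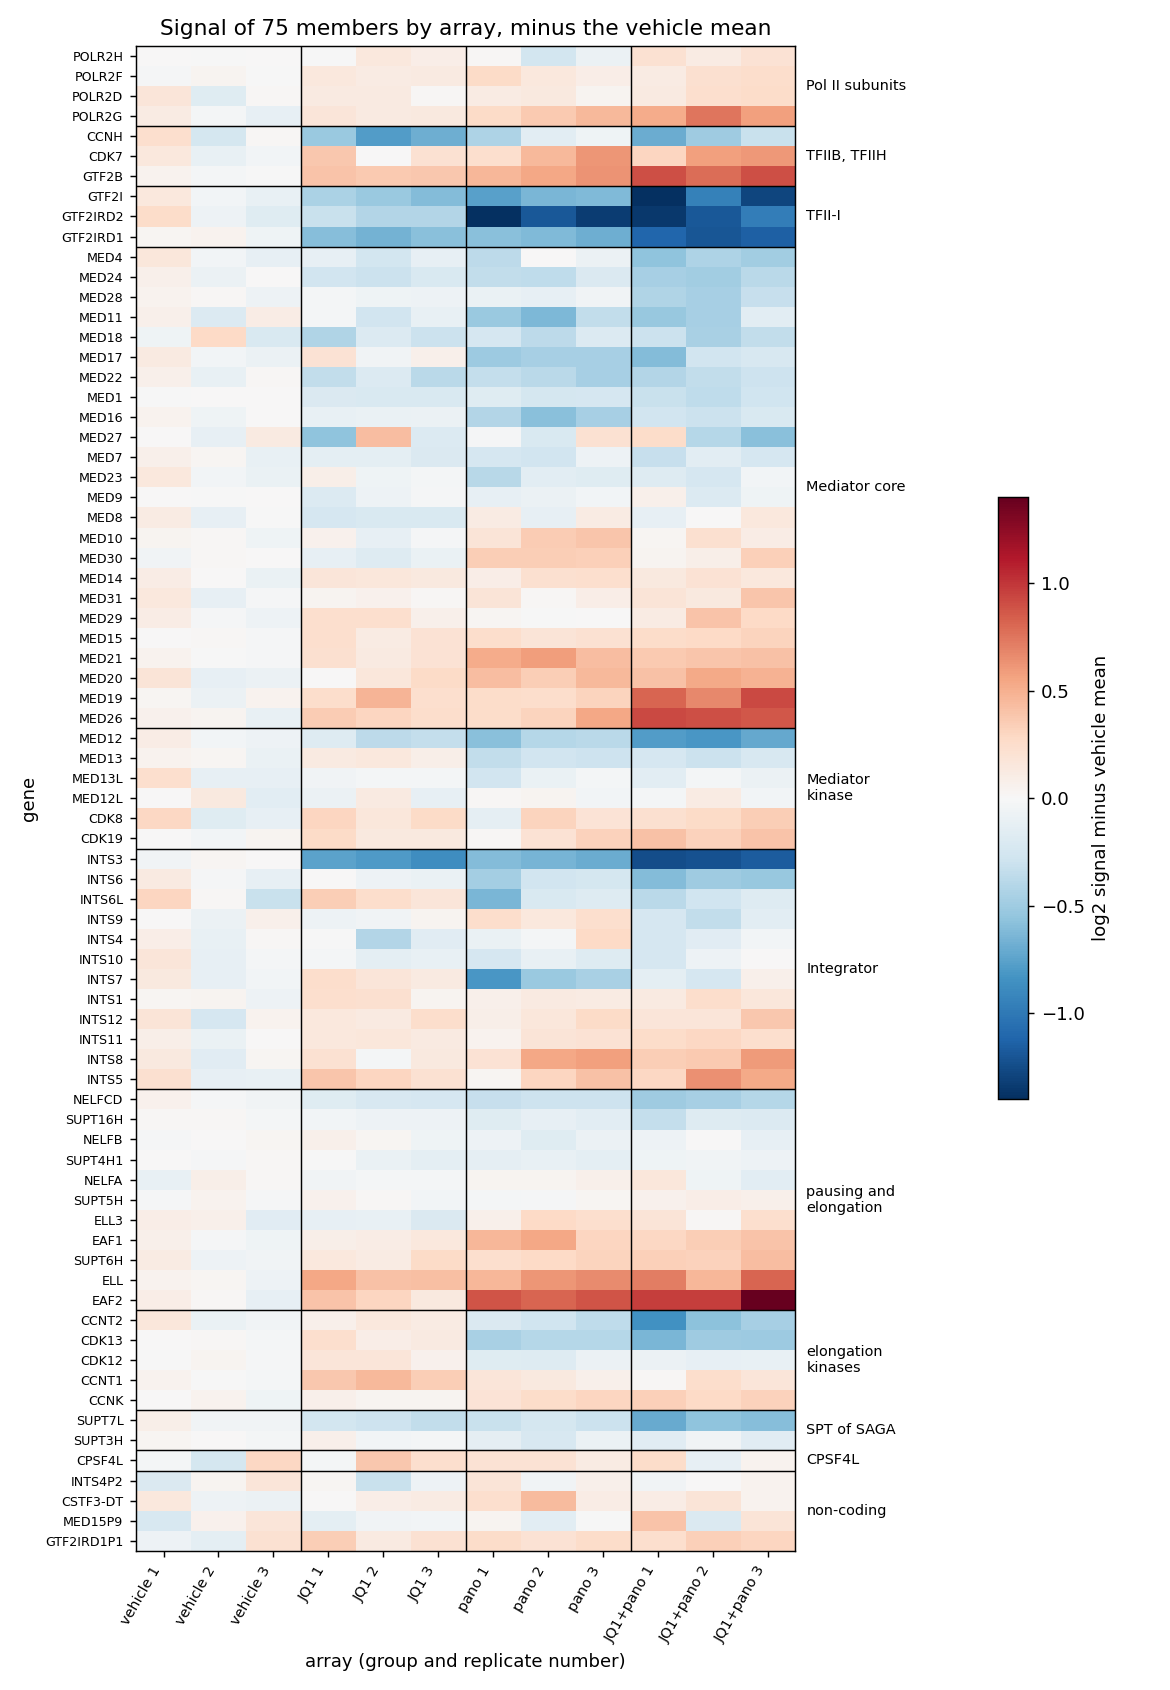
Log2 signal of the 75 genes (vertical axis, grouped by role and ordered within each role by the change in the combination) on each of the 12 arrays (horizontal axis), with the vehicle mean of each gene subtracted; red is above and blue below that mean. GTF2I, GTF2IRD1 and INTS3 are blue on every array of the 3 treated groups, while GTF2B, MED26 and ELL are red on every one.

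Across the 75 genes, JQ1 raised 6 and lowered 10, panobinostat raised 17 and lowered 17, and the combination raised 20 and lowered 24. For JQ1 the called share of all genes was 17.6% (8.18% higher and 9.47% lower). Of all genes, 29.3% were called with panobinostat (14.5% higher, 14.8% lower) and 37.7% in the combination (18.2% higher, 19.5% lower). The median log2 change of the 75 genes was 0.015 with JQ1, 0.003 with panobinostat and -0.003 in the combination, against 0.011, 0.031 and 0.025 over all genes. Most of these genes are bright: 63 of the 71 protein-coding genes lay above the median gene's mean signal. Among all genes above that median, 27.9% were called with JQ1, 45.3% with panobinostat and 58.3% in the combination. The shares of the 63 bright members were 25.4%, 52.4% and 61.9%. The share of these 63 was thus lower than that of all genes above the median with JQ1, and higher with panobinostat and in the combination. Genes matched more closely for signal were not compared. In bulk RNA, fewer cells of a type and less RNA per cell cannot be told apart.

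**Figure D2:**
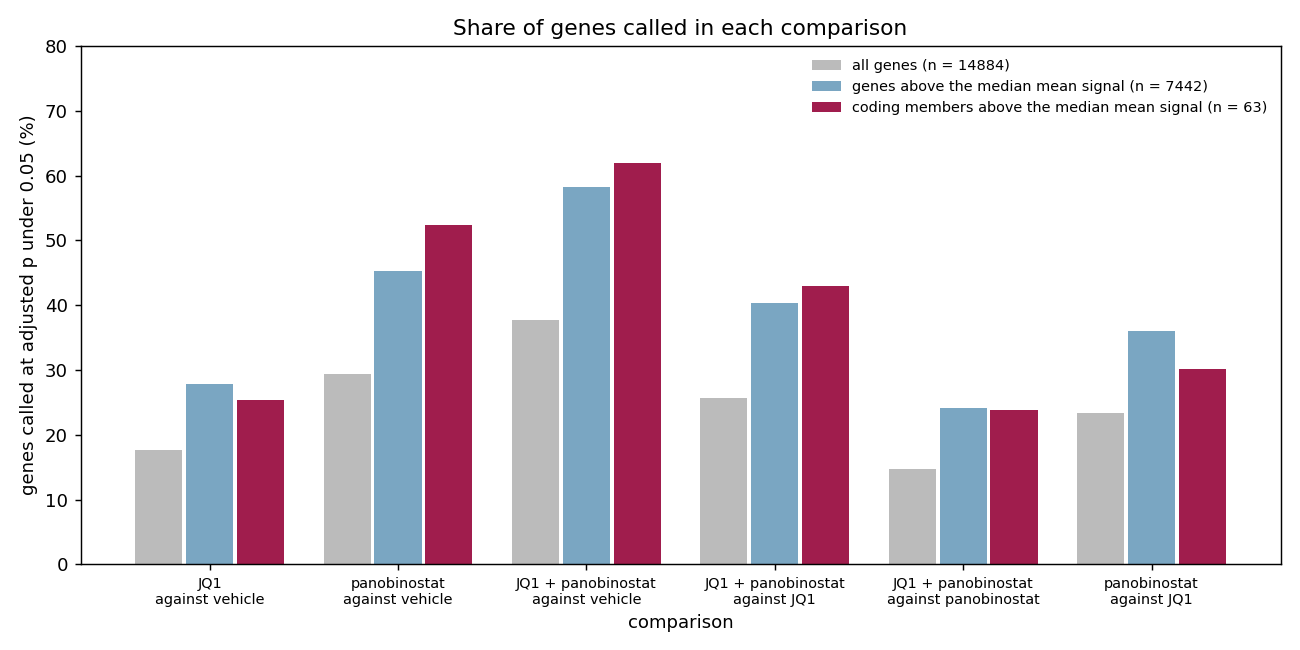
Percentage of genes called at an adjusted p under 0.05 (vertical axis) in 6 comparisons (horizontal axis), for all 14884 genes, the 7442 genes above the median mean signal and the 63 protein-coding genes of the machinery above it. The last group lies above the bright genes in some comparisons, for example at 61.9% against 58.3% for the combination against vehicle. It lies below them in others, for example at 30.2% against 36.0% for panobinostat against JQ1.

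The JQ1 counts rested on some single arrays. Of the 16 calls, 9 passed without JQ1 replicate 2 and 10 without JQ1 replicate 1, and 8 held in each of the 12 fits that left out 1 array (CCNH, CCNT1, ELL, GTF2B, GTF2I, GTF2IRD1, INTS3 and SUPT7L). Panobinostat kept 28 of 34 calls in all 12 fits, losing CDK7, INTS8, INTS9, MED15, MED19 and SUPT6H in some. The combination kept 34 of 44, losing CCNH, GTF2IRD1P1, INTS8, INTS9, MED7, MED11, MED17, MED18, MED29 and POLR2F in some. Without all replicate 1 arrays, 5 rose and 5 fell with JQ1, 16 rose and 12 fell with panobinostat, and 22 rose and 14 fell in the combination. Over all genes the same setting gave 1024 higher and 1004 lower, 2073 and 1679, and 2720 and 2390.

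Among the polymerase subunits the data hold POLR2D, POLR2F, POLR2G and POLR2H. Panobinostat raised 1 of these 4 subunits and the combination raised 2, where 14.5% and 18.2% of all genes were called higher. None of the 4 was called with JQ1 in limma, and 0 had an unadjusted p under 0.05. POLR2G, which with POLR2D forms the stalk of the enzyme, read 8.73, 8.58 and 8.5 on the vehicle arrays, 8.78, 8.74 and 8.75 with JQ1, 8.88, 8.98 and 9.06 with panobinostat, and 9.13, 9.36 and 9.18 in the combination. All panobinostat and combination arrays lay above all vehicle arrays. The change was 0.15 ± 0.08 with JQ1, 0.37 ± 0.08 with panobinostat (adjusted p = 0.00617) and 0.62 ± 0.08 in the combination (adjusted p = 0.000102). POLR2D, the partner of POLR2G in the stalk, was not called (0.21 ± 0.09 in the combination, adjusted p = 0.0872). POLR2F, a small subunit shared by the nuclear polymerases, was the call nearest the threshold (0.20 ± 0.07, adjusted p = 0.0389), with MED31 the nearest outside it (0.23 ± 0.09, adjusted p = 0.0581). The POLR2F call did not pass without any 1 of 8 arrays, with values of 0.17 to 0.21: vehicle replicates 1, 2 and 3, JQ1 replicates 1, 2 and 3, and combination replicates 2 and 3. A second, similarly bright POLR2F cluster read 0.19 ± 0.07 in the combination.

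Of the initiation factors, GTF2B, CDK7 and CCNH were measured. GTF2B encodes TFIIB, which positions the polymerase at the start site. Its vehicle arrays read 9.50, 9.42 and 9.44, and its JQ1 arrays 9.85, 9.82 and 9.83. The panobinostat arrays read 9.91, 9.99 and 10.08, and the combination arrays 10.35, 10.23 and 10.35. The 4 groups followed each other without overlap. GTF2B rose by 0.38 ± 0.07 with JQ1 (adjusted p = 0.00203), by 0.54 ± 0.07 with panobinostat (adjusted p = 0.0001) and by 0.86 ± 0.07, or 1.81-fold, in the combination (adjusted p = 1.26e-06).

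CDK7 and cyclin H (CCNH), the kinase and cyclin of TFIIH, moved in opposite directions. CDK7 rose by 0.43 ± 0.13 with panobinostat and by 0.49 ± 0.13 in the combination. Its panobinostat call did not pass without vehicle replicate 2 (0.38) or 3 (0.41) or panobinostat replicate 2 (0.42) or 3 (0.34). CCNH read 10.17, 9.68 and 9.95 with vehicle, 9.41, 9.15 and 9.25 with JQ1, 9.50, 9.78 and 9.87 with panobinostat, and 9.24, 9.43 and 9.62 in the combination. The JQ1 and combination arrays lay below all vehicle arrays, while those of panobinostat overlapped them. CCNH fell by 0.66 ± 0.14 with JQ1 (adjusted p = 0.00724) and by 0.50 ± 0.14 in the combination (adjusted p = 0.0145), and was at -0.22 ± 0.14 with panobinostat. Its combination call did not pass without vehicle replicate 1 (-0.39) or combination replicate 1 (-0.41).

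The called genes of the TFII-I family all fell. Of all genes, 9.47%, 14.8% and 19.5% were called lower with JQ1, panobinostat and the combination. In the TFII-I family JQ1 lowered 2 of the 3 genes, panobinostat 3 and the combination 3. These genes lie together in the Williams syndrome region of chromosome 7 and encode transcription factors that bind initiator and E-box elements, so they share the GTF2 symbol with the general factors without being part of the core machinery. GTF2I (cluster 17047176) read 10.44, 10.25 and 10.19 with vehicle, 9.85, 9.77 and 9.68 with JQ1, 9.53, 9.65 and 9.67 with panobinostat, and 8.78, 9.34 and 9.01 in the combination. Each treated group lay below vehicle, and the combination lay below each single compound. GTF2I fell by 0.53 ± 0.12 with JQ1 (adjusted p = 0.0118), by 0.68 ± 0.12 with panobinostat (adjusted p = 0.0014) and by 1.25 ± 0.12, a 2.38-fold difference, in the combination (adjusted p = 8.21e-06).

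GTF2IRD1 (cluster 17047138), whose promoter is printed above, read 9.54, 9.56 and 9.45 with vehicle and 8.91, 8.85 and 8.92 with JQ1. It read 8.92, 8.89 and 8.83 with panobinostat and 8.40, 8.31 and 8.37 in the combination. The single compounds gave nearly the same level and the combination lay below both. GTF2IRD1 fell by 0.62 ± 0.06 with JQ1 (adjusted p = 6.25e-05), by 0.63 ± 0.06 with panobinostat (adjusted p = 2.13e-05) and by 1.15 ± 0.06 in the combination (adjusted p = 9.14e-08).

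GTF2IRD2 behaved differently, with most of its fall in the panobinostat groups. It read 8.58, 8.25 and 8.15 with vehicle, 8.01, 7.91 and 7.91 with JQ1, 6.84, 7.13 and 6.99 with panobinostat, and 6.97, 7.13 and 7.35 in the combination. Panobinostat and combination arrays overlapped each other and lay below all others. GTF2IRD2 fell by 1.34 ± 0.13 with panobinostat (adjusted p = 1.64e-05) and by 1.18 ± 0.13 in the combination, and was at -0.38 ± 0.13 with JQ1. GTF2I and GTF2IRD2 have near-identical copies at this locus, so their probes may also read those copies and their values are uncertain in this respect. The pseudogene GTF2IRD1P1 went the other way in the combination, at 0.29 ± 0.09 (adjusted p = 0.0275). It is dim (mean 6.18, against 7.24 for the median gene). Its call did not pass without vehicle replicate 1 or 2 or combination replicate 2 or 3. Nor did it pass with quantile normalization, trended and robust eBayes, only the arrays compared, or no replicate 1 arrays.

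**Figure D3:**
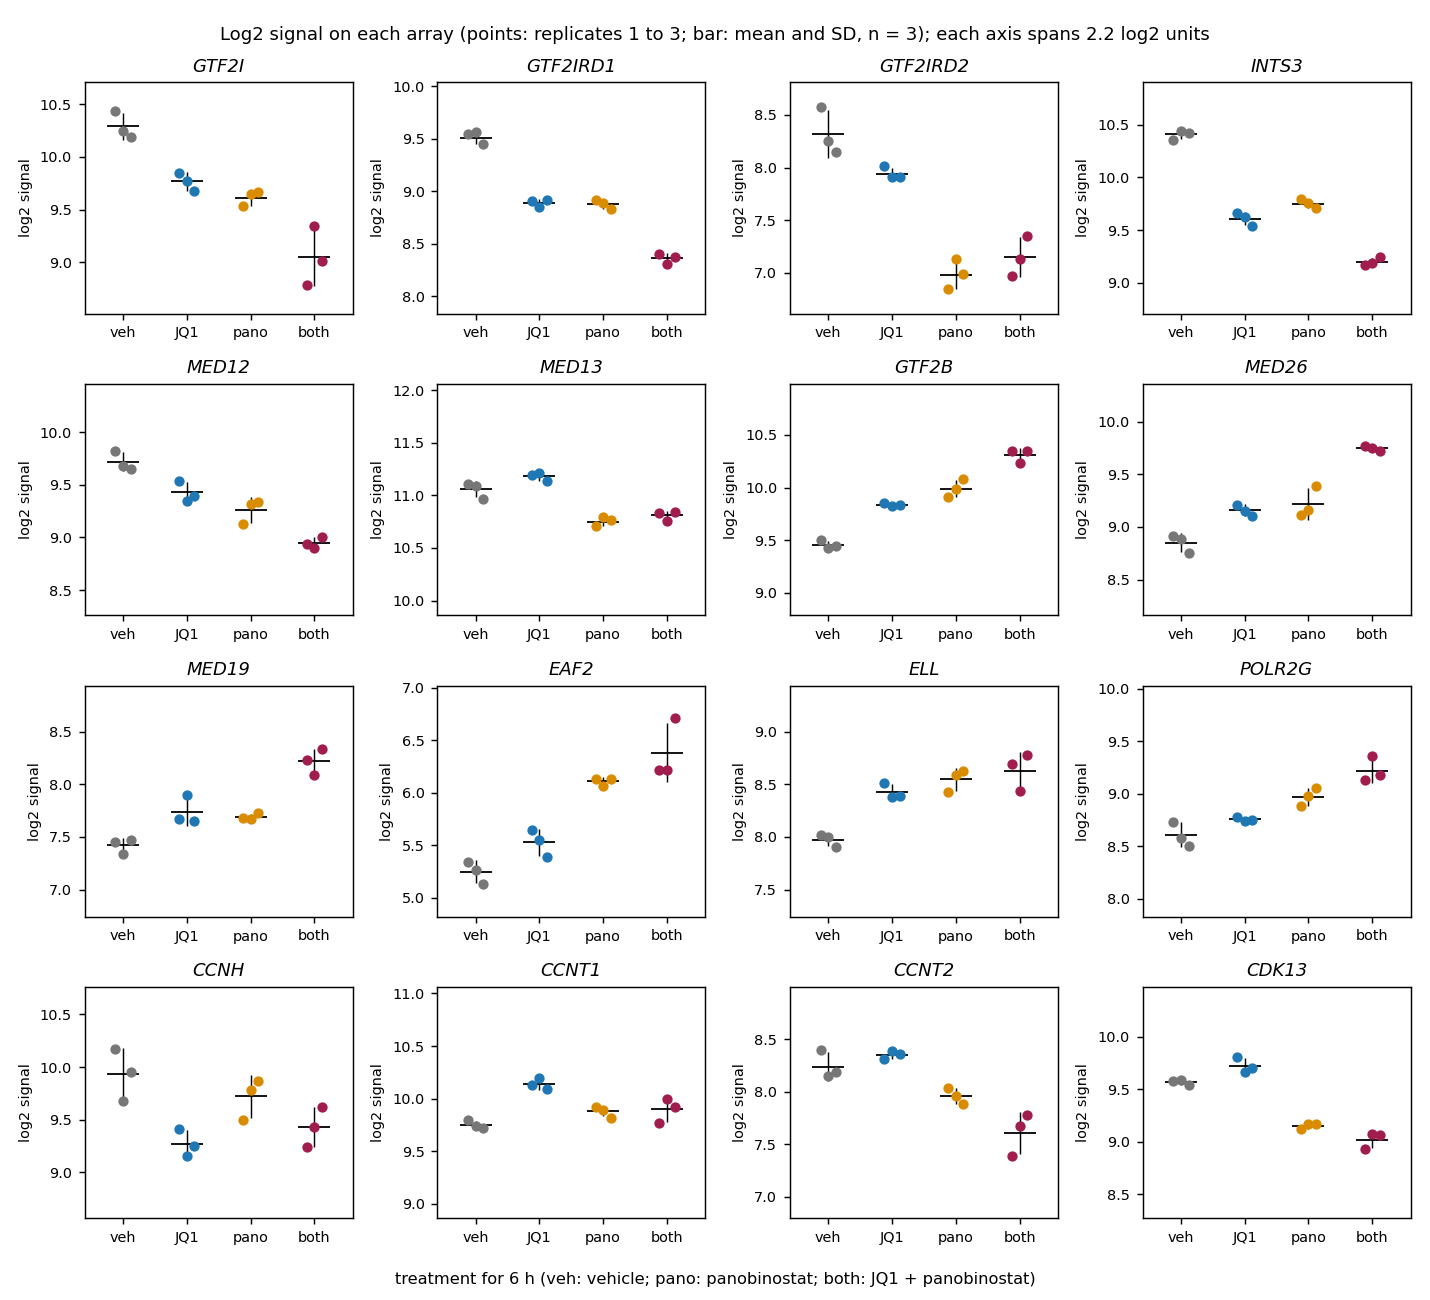
Log2 signal (vertical axis, spanning the same range in each panel) of 16 genes on each array of the 4 groups (horizontal axis); points are replicates, the horizontal bar is the mean and the vertical bar the SD (n = 3). GTF2I, GTF2IRD1 and INTS3 step down from vehicle to the single compounds to the combination, GTF2B and MED26 step up, and CCNT1 is highest with JQ1 alone.

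Mediator was the largest family, with 24 subunits of the head, middle and tail and 6 genes of the kinase module. JQ1 raised 3 of these 30 genes and lowered 4, panobinostat raised 7 and lowered 8, and the combination raised 7 and lowered 12. That is 7, 15 and 19 of the 30 called, where 17.6%, 29.3% and 37.7% of all genes were. Most of the 30 are bright, and the shares of all genes above the median mean signal were 27.9%, 45.3% and 58.3%. MED26 and MED19 rose most in the combination. MED26, the subunit through which Mediator recruits elongation factors of the ELL and EAF families, read 8.91, 8.89 and 8.75 with vehicle, 9.21, 9.15 and 9.10 with JQ1, 9.11, 9.16 and 9.39 with panobinostat, and 9.77, 9.75 and 9.72 in the combination. The combination arrays lay above all others, and those of the single compounds overlapped each other above vehicle. MED26 rose by 0.30 ± 0.08 with JQ1 (adjusted p = 0.0241), by 0.37 ± 0.08 with panobinostat (adjusted p = 0.00494) and by 0.90 ± 0.08, or 1.86-fold, in the combination (adjusted p = 4.35e-06). Its JQ1 call did not pass without JQ1 replicate 1 (0.27) or 2 (0.30) or vehicle replicate 3 (0.25).

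MED19, a middle-module subunit that links Mediator to the polymerase, read 7.45, 7.34 and 7.47 with vehicle, 7.67, 7.90 and 7.65 with JQ1, 7.68, 7.67 and 7.73 with panobinostat, and 8.23, 8.09 and 8.34 in the combination. As for MED26, the combination stood above both compounds, whose arrays overlapped. MED19 rose by 0.32 ± 0.09 with JQ1, by 0.27 ± 0.09 with panobinostat and by 0.80 ± 0.09 in the combination (adjusted p = 1.65e-05). The JQ1 call did not pass without vehicle replicate 2 (0.28) or JQ1 replicate 2 (0.24). The panobinostat call did not pass when any single vehicle or panobinostat array was left out.

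In the combination the other called head, middle and tail subunits changed by less than MED26 and MED19. Panobinostat raised MED21 by 0.51 ± 0.06 (adjusted p = 0.000116) and MED20 by 0.41 ± 0.09, and the combination raised them by 0.39 ± 0.06 and 0.48 ± 0.09. Panobinostat lowered MED11 by 0.50 ± 0.12, MED16, a tail subunit, by 0.48 ± 0.07, and MED17, a head scaffold, by 0.48 ± 0.11. MED17 was at 0.07 with JQ1 and fell by 0.37 ± 0.11 in the combination, a call that did not pass without vehicle replicate 1 (-0.305) or combination replicate 1 (-0.245). In the combination MED4 fell by 0.49 ± 0.11 and MED28 by 0.40 ± 0.06, with neither called for JQ1 (-0.16 and -0.05) or panobinostat (-0.14 and -0.09).

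MED1, the subunit contacted by nuclear receptors and the brightest gene of the machinery (mean 11.7), fell slightly in all treatments. Its arrays read 11.83, 11.85 and 11.84 with vehicle, 11.64, 11.63 and 11.63 with JQ1, 11.67, 11.59 and 11.60 with panobinostat, and 11.53, 11.48 and 11.56 in the combination. Each treated group lay below all vehicle arrays, and the JQ1 and panobinostat arrays overlapped each other. MED1 fell by 0.20 ± 0.06 with JQ1, by 0.22 ± 0.06 with panobinostat and by 0.31 ± 0.06 in the combination (adjusted p = 0.00079). Its JQ1 call did not pass without any 1 of the 3 JQ1 arrays or vehicle replicate 2 or 3 (-0.20 to -0.21). MED24 fell by 0.45 ± 0.07 in the combination, and MED22 by 0.30 ± 0.08, 0.38 ± 0.08 and 0.35 ± 0.08 with JQ1, panobinostat and the combination. The MED22 call with JQ1 did not pass without vehicle replicate 1 (-0.26) or 3 (-0.29) or JQ1 replicate 1 (-0.28) or 3 (-0.26). The bright scaffold subunit MED14 was called with no treatment (0.16 ± 0.07 in the combination, adjusted p = 0.0811). MED27 was the dimmest gene (mean 5.09), with widely spread replicates (4.62, 5.61 and 4.99 with JQ1), and was not called.

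In the kinase module, which holds cyclin C with CDK8 or CDK19 and regulates the association of Mediator with the polymerase, MED12 fell and its paralog MED12L did not pass the test. MED12 activates the kinase. It read 9.82, 9.68 and 9.65 with vehicle, 9.54, 9.35 and 9.39 with JQ1, 9.13, 9.32 and 9.34 with panobinostat, and 8.94, 8.90 and 9.0 in the combination. The combination arrays lay below those of the single compounds, and these below vehicle. MED12 fell by 0.29 ± 0.08 with JQ1 (adjusted p = 0.0305), by 0.46 ± 0.08 with panobinostat (adjusted p = 0.00141) and by 0.77 ± 0.08, a 1.71-fold difference, in the combination (adjusted p = 1.54e-05). Its JQ1 call did not pass without vehicle replicate 1 (-0.24) or 2 (-0.31) or JQ1 replicate 2 (-0.25) or 3 (-0.27). MED12L was at 0.02 ± 0.09 in the combination, and its mean signal (7.02) lay below that of the median gene (7.24).

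MED13, which tethers the module to Mediator, fell by 0.30 ± 0.06 with panobinostat and by 0.25 ± 0.06 in the combination and was at 0.12 with JQ1, while its paralog MED13L was at -0.09 ± 0.10 in the combination. The kinase CDK19 rose by 0.38 ± 0.08 in the combination (adjusted p = 0.00274). Its paralog CDK8 was at 0.27 ± 0.13 (adjusted p = 0.132), with a wider vehicle spread (10.09, 9.63 and 9.68). The difference between these paralogs was not tested.

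**Figure D4:**
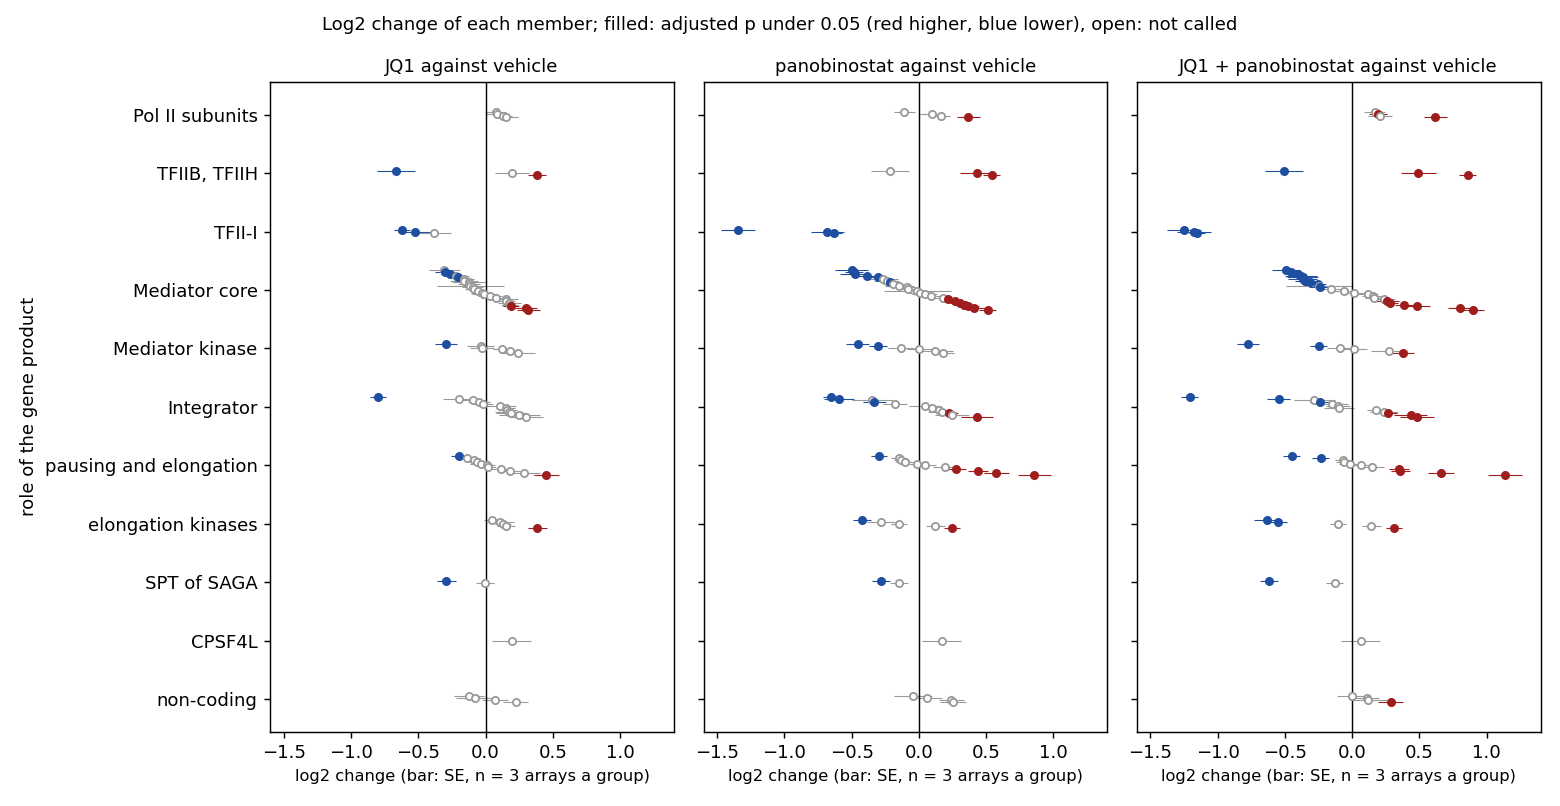
Log2 change from vehicle (horizontal axis; bars are SE, n = 3 arrays a group) of each of the 75 genes by the role of its product (vertical axis) for JQ1, panobinostat and the combination. Filled points passed an adjusted p of 0.05. The 3 TFII-I genes lie to the left in the combination panel, near -1.2, whereas the Mediator core spreads from -0.49 (MED4) to 0.90 (MED26).

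Integrator cuts small nuclear RNAs and the transcripts of paused polymerases, and 12 of its subunit genes were measured. JQ1 lowered 1 and raised none, panobinostat lowered 3 and raised 2, and the combination lowered 3 and raised 3. That is 1, 5 and 6 of the 12 called, where 17.6%, 29.3% and 37.7% of all genes were. Each of the 12 lay above the median gene's mean signal. Among all genes above that median the shares were 27.9%, 45.3% and 58.3%. INTS3 (cluster 16671217), which also forms the SOSS complex of DNA repair, read 10.36, 10.44 and 10.42 with vehicle, 9.66, 9.62 and 9.54 with JQ1, 9.80, 9.76 and 9.71 with panobinostat, and 9.17, 9.19 and 9.24 in the combination. The groups did not overlap, and the spread within each was small beside the distance to vehicle. INTS3 fell by 0.80 ± 0.06 with JQ1 (adjusted p = 1.05e-05), by 0.65 ± 0.06 with panobinostat (adjusted p = 1.63e-05) and by 1.21 ± 0.06, a 2.31-fold difference, in the combination (adjusted p = 6.19e-08).

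Changes from vehicle in the other Integrator genes were smaller. INTS6 fell by 0.33 ± 0.08 with panobinostat and by 0.54 ± 0.08 in the combination. INTS7 fell by 0.59 ± 0.11 with panobinostat but not in the combination, where it was at -0.10 ± 0.11. INTS7 was 0.49 ± 0.11 higher in the combination than with panobinostat alone (adjusted p = 0.0124). INTS9, the partner of INTS11, rose by 0.22 ± 0.07 with panobinostat and fell by 0.24 ± 0.07 in the combination, and each call was lost in some of the fits without 1 array. INTS5 rose by 0.48 ± 0.13 and INTS11, the endonuclease of the complex, by 0.27 ± 0.07 in the combination. INTS8 rose by 0.43 ± 0.12 with panobinostat and in the combination; the former call did not pass without vehicle replicate 2 (0.35) or panobinostat replicate 2 (0.38) or 3 (0.36), nor the latter without vehicle replicate 2 (0.35) or combination replicate 3 (0.35). INTS1, the scaffold subunit, was not called (0.18 ± 0.07 in the combination, adjusted p = 0.0711). INTS4 was not called either, and its probes may share signal with the pseudogene INTS4P2.

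Among 11 pausing and elongation factors, JQ1 raised 1 and lowered 1, panobinostat raised 4 and lowered 1, and the combination raised 4 and lowered 2. That is 18.2%, 45.5% and 54.5% of the 11 called, against 17.6%, 29.3% and 37.7% of all genes. Most of the 11 are bright, and the shares of all genes above the median mean signal were 27.9%, 45.3% and 58.3%. The rises among the 11 were in the ELL and EAF families and in SUPT6H. EAF2, a partner of ELL, read 5.34, 5.27 and 5.13 with vehicle, 5.65, 5.55 and 5.39 with JQ1, 6.13, 6.06 and 6.13 with panobinostat, and 6.22, 6.22 and 6.71 in the combination. Panobinostat and combination arrays lay above all others. EAF2 rose by 0.86 ± 0.12 with panobinostat (adjusted p = 0.000311) and by 1.14 ± 0.12 in the combination (adjusted p = 1.84e-05), and was at 0.28 ± 0.12 with JQ1. It is a dim gene, below the mean of the median gene on every array.

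ELL, an elongation factor that suppresses polymerase pausing, read 8.02, 8.0 and 7.90 with vehicle, 8.51, 8.38 and 8.39 with JQ1, 8.43, 8.59 and 8.63 with panobinostat, and 8.69, 8.44 and 8.78 in the combination. The 3 treated groups overlapped each other and lay above vehicle. ELL rose by 0.45 ± 0.09 with JQ1 (adjusted p = 0.00586), by 0.57 ± 0.09 with panobinostat and by 0.66 ± 0.09 in the combination (adjusted p = 0.000138). Its paralog ELL3 was called with no treatment against vehicle (0.15 ± 0.09 in the combination). The mean signal of ELL3 (6.34) lay below that of the median gene (7.24). EAF1, the paralog of EAF2, rose by 0.44 ± 0.07 with panobinostat and by 0.35 ± 0.07 in the combination and was at 0.11 with JQ1. A second, dimmer EAF1 cluster was called with JQ1 too (0.49 ± 0.12) and read 0.87 ± 0.12 in the combination.

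Of the measured NELF and DSIF genes, 1 of 5 was called, and it fell in each treatment. With JQ1, panobinostat and the combination, 9.47%, 14.8% and 19.5% of all genes were called lower. NELFCD, a NELF subunit, read 11.18, 11.10 and 11.07 with vehicle and 10.62, 10.65 and 10.72 in the combination, with the single compounds in between (10.89 to 10.95 with JQ1, 10.80 to 10.83 with panobinostat). No arrays of these groups overlapped. NELFCD fell by 0.20 ± 0.06 with JQ1 (adjusted p = 0.0406), by 0.30 ± 0.06 with panobinostat and by 0.45 ± 0.06 in the combination (adjusted p = 8.64e-05). Its JQ1 call did not pass without any 1 of the 3 vehicle or 3 JQ1 arrays, panobinostat replicates 2 and 3 or combination replicate 2 (-0.17 to -0.22). NELFA, NELFB and the DSIF subunits SUPT4H1 and SUPT5H were called with no treatment, with changes of -0.07 to 0.07 in the combination. SUPT16H, a subunit of the histone chaperone FACT, fell by 0.23 ± 0.06 and SUPT6H, a histone chaperone that travels with the polymerase, rose by 0.36 ± 0.07 in the combination.

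The 5 elongation kinases and cyclins all differed between panobinostat and JQ1, 4 lower and CCNK higher with panobinostat. The CCNK call did not pass without any 1 of the JQ1 arrays or panobinostat replicate 2 or 3 (0.17 to 0.21). That of CCNT1 did not pass without JQ1 replicate 1 or 2 or panobinostat replicate 2 or 3 (-0.23 to -0.27), nor that of CCNT2 without JQ1 replicate 2 or panobinostat replicate 3 (-0.375 and -0.35). In that comparison 23.3% of all genes were called. Against vehicle, 1 of 5 rose with JQ1, 1 rose and 1 fell with panobinostat, and 1 rose and 2 fell in the combination. Of all genes, 17.6%, 29.3% and 37.7% were called in these comparisons. CCNT1, the main cyclin of P-TEFb, read 9.80, 9.74 and 9.72 with vehicle, 10.13, 10.20 and 10.09 with JQ1, 9.92, 9.89 and 9.82 with panobinostat, and 9.77, 10.00 and 9.92 in the combination. Its JQ1 arrays lay above all others. CCNT1 rose by 0.39 ± 0.07 with JQ1 (adjusted p = 0.00339) and was at 0.12 ± 0.07 with panobinostat and 0.14 ± 0.07 in the combination.

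CCNT2, the alternative P-TEFb cyclin, read 8.40, 8.15 and 8.19 with vehicle, 8.31, 8.39 and 8.36 with JQ1, 8.04, 7.96 and 7.88 with panobinostat, and 7.39, 7.67 and 7.78 in the combination. The combination arrays lay below all others. CCNT2 fell by 0.63 ± 0.10 in the combination (adjusted p = 0.000364) and was at 0.11 ± 0.10 with JQ1 and -0.28 ± 0.10 with panobinostat. CDK13, a kinase of elongating polymerase, read 9.58, 9.59 and 9.54 with vehicle, 9.81, 9.66 and 9.70 with JQ1, 9.12, 9.17 and 9.17 with panobinostat, and 8.93, 9.07 and 9.06 in the combination. It fell by 0.42 ± 0.07 with panobinostat (adjusted p = 0.000551) and by 0.55 ± 0.07 in the combination (adjusted p = 3.92e-05).

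CDK12, the paralog of CDK13, was called in no comparison with vehicle (-0.10 ± 0.06 in the combination). CCNK, the cyclin of both kinases, rose by 0.25 ± 0.06 with panobinostat and by 0.31 ± 0.06 in the combination. SUPT7L, a subunit of the SAGA coactivator, read 10.63, 10.50 and 10.50 with vehicle and 9.84, 9.99 and 9.95 in the combination, without overlap. SUPT7L fell by 0.29 ± 0.07 with JQ1, by 0.28 ± 0.07 with panobinostat and by 0.62 ± 0.07 in the combination (adjusted p = 1.76e-05). SUPT3H of the same complex was not called (-0.13 ± 0.07). CPSF4L, the 1 cleavage factor gene in the set, was at 0.06 ± 0.14, with a mean signal (6.24) below the median gene (7.24).

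The combination was compared with each compound to show what the second compound adds. Against JQ1 alone, 11 of the 75 genes were higher and 18 lower, where 25.6% of all genes were called (11.7% higher, 13.9% lower). The largest rises were in EAF2 (0.85 ± 0.12), MED26 (0.59 ± 0.08), MED19 (0.48 ± 0.09), GTF2B (0.48 ± 0.07) and POLR2G (0.47 ± 0.08). GTF2IRD2 (-0.79 ± 0.13), CCNT2 (-0.74 ± 0.10), GTF2I (-0.72 ± 0.12), CDK13 (-0.70 ± 0.07) and INTS6L (-0.53 ± 0.15) had the largest falls. Of the 5 elongation kinases and cyclins, 4 were lower in the combination than with JQ1 and CCNK was higher (0.26 ± 0.06). Of these calls, that of CCNT1 (-0.24) did not pass without JQ1 replicate 1 or 2 or combination replicate 1 or 3 (-0.18 to -0.25), and that of CDK12 (-0.23) without JQ1 replicate 1 or 2 (-0.22 each). Without JQ1 replicate 1, 19 genes were called in place of 29. The INTS6L call did not pass without JQ1 replicate 1 (-0.49) or 2 (-0.54) or combination replicate 1 (-0.48) or 2 (-0.53).

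Against panobinostat alone, 6 genes were higher and 9 lower, where 14.7% of all genes were called (6.13% higher, 8.55% lower). MED26 (0.53 ± 0.08), MED19 (0.53 ± 0.09), INTS7 (0.49 ± 0.11), GTF2B (0.32 ± 0.07) and POLR2H (0.28 ± 0.08) had the largest rises. GTF2I (-0.57 ± 0.12), INTS3 (-0.55 ± 0.06), GTF2IRD1 (-0.52 ± 0.06), INTS9 (-0.46 ± 0.07) and MED4 (-0.35 ± 0.11) had the largest falls. The POLR2H call did not pass without panobinostat replicate 2 (0.20) or 3 (0.29) or combination replicate 1 (0.26), 2 (0.31) or 3 (0.27). That of MED4 passed in only 2 of the 12 fits that left out 1 array, those without vehicle replicate 1 or panobinostat replicate 1, with values of -0.27 to -0.38 in the other 10.

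Panobinostat was also set against JQ1. With panobinostat 9 genes were higher and 12 lower than with JQ1, where 23.3% of all genes were called (11.6% higher and 11.6% lower). With arrays centred on their medians the split was 6 higher and 14 lower, and that of all genes went from 1732 higher and 1729 lower to 1438 and 2248. EAF2 (0.58 ± 0.12), MED30 (0.46 ± 0.08), CCNH (0.45 ± 0.14), MED10 (0.34 ± 0.08) and MED21 (0.33 ± 0.06) were higher by most, and GTF2IRD2 (-0.96 ± 0.13), INTS7 (-0.78 ± 0.11), INTS6L (-0.60 ± 0.15), CDK13 (-0.57 ± 0.07) and MED17 (-0.55 ± 0.11) lower by most. The CCNH call did not pass in 6 of the fits that left out 1 array (0.37 to 0.45), those without JQ1, panobinostat or combination replicate 2 or without vehicle, JQ1 or panobinostat replicate 3. The INTS6L call did not pass without JQ1 replicate 1 (-0.55) or panobinostat replicate 1 (-0.45). CDK12 was lower with panobinostat than with JQ1 by 0.28 ± 0.06, with the arrays of the 2 groups apart.

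The interaction, by how far the combined change departs from the added single changes, tests whether the compounds' effects add on the log2 scale. None of the 75 genes passed it in limma, where 0.759% of all genes did. Before adjustment 11 of the 75 (14.7%) had a p under 0.05, against 13.7% of all genes. INTS9 had the smallest adjusted p (-0.44 ± 0.10, adjusted p = 0.0809). Testing without dim genes called INTS9 (adjusted p = 0.0296), and a variance trend with robust estimation called INTS9 and CCNT1 (adjusted p = 0.0192 and 0.0416). For GTF2I, GTF2IRD1, MED26 and MED19, the combination lay beyond both compounds, while the interaction was not called.

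Other genes of the same pathway that the symbol families leave out were followed as a second list of 64, of which 35 were measured. JQ1 raised 10 and lowered 4, panobinostat raised 7 and lowered 8, and the combination raised 10 and lowered 11, with medians of 0.07, 0.01 and -0.02. That is 14, 15 and 21 of the 35 called, where 17.6%, 29.3% and 37.7% of all genes were. Among all genes above the median mean signal the shares were 27.9%, 45.3% and 58.3%. The brightness of these 35 genes was not compared. HEXIM1, an inhibitor of P-TEFb, had the largest rise of the list with JQ1 (1.85 ± 0.06) and in the combination (1.96 ± 0.06), and rose by 0.44 ± 0.06 with panobinostat. A second, dimmer HEXIM1 cluster (mean 6.84) went the other way in the combination (-0.68 ± 0.15). The paralog HEXIM2 (mean 6.89) fell by 0.79 ± 0.10 with JQ1, by 0.60 ± 0.10 with panobinostat and by 0.73 ± 0.10 in the combination. A second, dimmer HEXIM2 cluster (mean 6.13) rose by 0.27 ± 0.07 in the combination. In the combination CDK9, the kinase partner of CCNT1 and CCNT2, rose by 0.67 ± 0.06 and RPAP3, a polymerase assembly factor, by 0.83 ± 0.07. MEPCE, which caps and stabilises the small nuclear RNA that holds P-TEFb inactive, rose by 0.46 ± 0.09 with JQ1 but fell by 1.55 ± 0.09 with panobinostat and by 0.88 ± 0.09 in the combination. RPRD2, which binds the polymerase tail, fell by 1.38 ± 0.06, and ICE2 of the little elongation complex by 0.80 ± 0.07. Of the SOSS partners of INTS3, INIP rose by 0.58 ± 0.07 and NABP2 fell by 0.38 ± 0.06 in the combination.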

How the data were processed

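Total RNA of 12 samples was hybridised to 1 array each. The submitters' processing notes name MAS5 and affy, with no role or version. Background correction, summarisation, normalization and build were not given in the sources used here. The deposited values (1.39 to 14.1, 53617 clusters) were read as log2 signals, a base that the labels leave unstated and on which every fold depends. Without detection calls, signal over background is unknown, and precision is limited by how many arrays there are.

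The annotation named 16098 clusters, giving 14884 genes; 37519 unnamed clusters were not used. All genes and arrays entered 1 fit in R 4.3.3 with limma 3.58.1 (lmFit, eBayes, no replicate term, 8 residual and 3.457 prior degrees of freedom). P-values are two-sided, with Benjamini-Hochberg adjustment within each of 7 comparisons. Replicates are not stated to be separate cultures, so p-values reflect the scatter of these samples alone, possibly technical. Exact permutation of 3 against 3 arrays has a smallest two-sided p of 0.1 and was not used. The fit was tested on simulated data. Promoters are RefSeq's, on GRCh38.p14.

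The members, roles and lists were chosen with earlier results of these data known. Per role and comparison with vehicle, up to 4 called genes with the largest change and the brightest uncalled gene were named, and the 5 largest rises and falls between treatments. Paralog pairs, the brightest and dimmest gene and those nearest the threshold were added. Genes of the second list were named without such a rule. INTS1, INTS11, MED20, MED24, MED28, NELFA, NELFB, SUPT5H and GTF2IRD1P1 were given values, and others listed as lost calls, after their values were seen. Alternatives were median centring, quantile normalization, no genes below the 40th percentile of signal, a replicate block, trended and robust eBayes, the mean of a gene's clusters, only the arrays compared, a threshold of 0.01, each array left out, and, chosen after seeing the data, no replicate 1 arrays.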

Additional observations from a re-analysis of the deposited data

Results flagged for a closer look

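For 5 genes the arrays moved in opposite directions when a compound was added alone and when it was added to the other one. None of these differences passed the interaction test of limma, adjusted over all genes, with n = 3 arrays per group. The share of all genes that would be flagged in this way was not computed, so the count of 5 has no background beside it. With panobinostat, CCNT1, the P-TEFb cyclin, was at 0.12 without JQ1 and -0.24 with it (interaction -0.36, adjusted p = 0.137). INTS9, which pairs with INTS11 in the Integrator cleavage module, was at 0.22 and -0.22 (interaction -0.44, adjusted p = 0.0809). With JQ1, CDK13 was at 0.15 without panobinostat and -0.13 with it (interaction -0.28, adjusted p = 0.2). MED16 was at -0.09 and 0.22 (interaction 0.31, adjusted p = 0.151), and MED21 at 0.18 and -0.13 (interaction -0.30, adjusted p = 0.152). Groups of 3 arrays are too small for a test of single outlying arrays, and none was made.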

How the results depend on the processing

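Counts of called genes moved by more than 1.5 times under some settings. For JQ1 against vehicle (16) they were 10 with a replicate block, 9 with only the arrays compared, 10 without all replicate 1 arrays and 6 at a threshold of 0.01, and leaving out 1 array gave 9 to 17. The combination against JQ1 (29) gave 19 at 0.01 and 19 to 30 without 1 array. Against panobinostat (15) it gave 8 with only the arrays compared, 9 without all replicate 1 arrays and 9 at 0.01, and panobinostat against JQ1 (21) gave 11 at 0.01. The interaction (0) gave 1 without dim genes and 2 with a variance trend and robust estimation. A stricter threshold calls fewer genes by construction; the cause of the other moves was not tested.

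The replicate block gave 33 calls for panobinostat, 41 for the combination, 24 and 10 for the combination against JQ1 and panobinostat, 18 for panobinostat against JQ1 and 0 for the interaction. Deviations of same-numbered arrays correlated at -0.69 to 0.24, over 0.1 in 4 of 18 pairs, and arrays did not all correlate best with their own number, so the numbers are not treated as pairs.

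The 142 named gene and comparison pairs gave 2970 values over the alternatives. These include the threshold of 0.01, at which the change is not recomputed and calls can only be lost. Of the 2970 values, 126 lost their call, 48 gained one and 29 changed sign, none of the last called. Uncalled values near 0 that changed sign, with their ranges without 1 array, were those of POLR2D with JQ1 (-0.001 to 0.171), SUPT3H with JQ1 (-0.039 to 0.014; 0.015 centred, 0.01 quantile), CCNH with panobinostat (0.013 without replicates 1), INTS4 with panobinostat (-0.069 to 0.118) and CPSF4L in the combination (-0.062 to 0.208; -0.049 without replicates 1). MED12L was at -0.103 to 0.045 with JQ1 (0.004 without replicates 1), -0.07 to 0.074 with panobinostat (-0.021 centred, -0.029 quantile, -0.002 without replicates 1) and -0.056 to 0.089 in the combination. MED13L was at -0.095 to 0.079 with JQ1, -0.145 to 0.029 in the combination, and 0.086, 0.052 and 0.062 with JQ1, panobinostat and both without replicates 1.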
